A study of Arabidopsis thaliana with 16 samples.

Results

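The 10 type-A response regulator genes of Arabidopsis thaliana, ARR3, ARR4, ARR5, ARR6, ARR7, ARR8, ARR9, ARR15, ARR16 and ARR17, were followed through peak lists of DNA affinity purification sequencing (DAP-seq), an assay in which a tagged protein is incubated in vitro with fragmented genomic DNA and the retained fragments are sequenced. The genes were taken by name, located by their locus in the RefSeq annotation of TAIR10.1 and given a window from 3000 bp upstream of the gene start to 1000 bp past the gene end. They were 10 of 33056 annotated nuclear genes. All peaks that overlapped a window by at least 1 bp in the 16 peak lists were counted, with no choice by their values. RefSeq names ARR5, ARR8, ARR16 and ARR17 as RR5, RR3, RR16 and RR17.

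The baits were 3xFLAG-PLT3, 3xFLAG-PLT5 and 3xFLAG-PLT7, tagged versions of 3 AINTEGUMENTA-like PLETHORA (PLT) transcription factors of the AP2 family, and 3xFLAG-GFP, a tagged fluorescent protein that served as the control. Each was incubated with genomic DNA of Col-0 shoot apical meristems (SAM) from 9-day-old seedlings or of Col-0 inflorescence meristems (IM) from plants of 4 to 8 weeks, with 2 replicates of about 500 meristems each, which gave 8 groups of 2 libraries. Every library started from 100 ng of DNA of the same wild-type accession and received 15 cycles of PCR. The DNA kept its own cytosine methylation but carried no nucleosomes, and the proteins were not those of the meristem, so a peak reports what a bait can hold in vitro and not occupancy in a plant.

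Type-A response regulators consist of little more than a receiver domain and lack the DNA-binding domain of the type-B regulators. Cytokinin is perceived by the histidine kinase receptors AHK2, AHK3 and AHK4, the signal is passed by AHP phosphotransfer proteins to type-B response regulators, and these activate the type-A genes, whose products dampen the same pathway. In the shoot apex the class is best known for ARR5, ARR6, ARR7 and ARR15, which are repressed by the stem cell factor WUSCHEL. Whether the PLT baits held DNA around these genes is the question that the peak lists address here.

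The deposited lists held between 3934 and 32232 peaks. The peak lists do not hold the number of reads behind them, so the lists are compared here by their length and fold enrichment. The PLT5 lists were the shortest of the PLT lists, the PLT3 SAM replicate 2 list was shorter than the other PLT3 lists, and the median fold enrichment of nuclear peaks was 2.52 to 2.59 for PLT3, 1.99 to 2.25 for PLT5, 3.54 to 3.75 for PLT7 and 4.11 to 4.69 for GFP. Fold enrichment is the ratio that MACS3 gives for the summit of a peak over the local background of the same library, since no control library entered the peak calling. The lists of the replicates of a group were not identical.

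Nearly every type-A gene had a PLT7 or PLT3 peak somewhere in its window, and so had most genes of the genome. PLT7 peaks fell in the windows of 9 members in SAM replicate 1, in 9 in SAM replicate 2, in 9 in IM replicate 1 and in 10 in IM replicate 2, beside 83.3%, 78.2%, 86.0% and 85.8% of all nuclear genes. PLT3 peaks fell in 9, 9, 10 and 10 windows in the same order, beside 83.9%, 72.6%, 83.6% and 83.8% of all genes. These shares do not set the class apart from the rest of the genome.

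For PLT5 the windows of 3 members held a peak in SAM replicate 1, 3 in SAM replicate 2, 6 in IM replicate 1 and 4 in IM replicate 2, beside 27.5%, 16.0%, 42.6% and 41.8% of all genes. GFP peaks fell in 2, 1, 5 and 4 windows, beside 23.9%, 24.8%, 40.4% and 30.1%. With only 10 genes in the class, these counts were read as near the background.

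**Figure D1:**
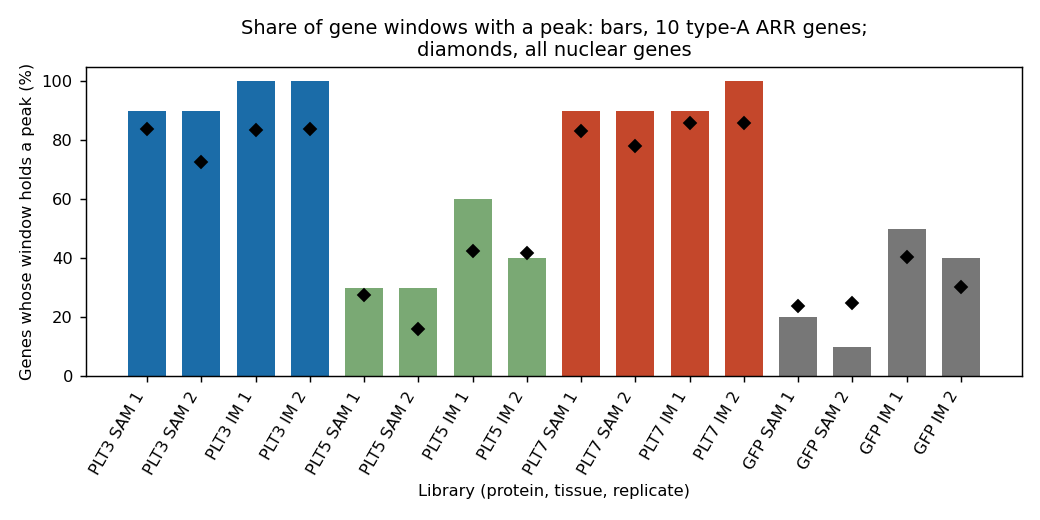
Share of gene windows (vertical axis, %) that held at least 1 peak in each of the 16 libraries (horizontal axis). Bars are the 10 type-A genes and diamonds all 33056 nuclear genes; for PLT3 and PLT7 the bars stand at 90% or 100% and the diamonds between 72.6% and 86.0%.

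In all, the 10 windows held 209 peaks, of which 93 came from PLT7, 83 from PLT3, 18 from PLT5 and 15 from GFP. Overlapping PLT peaks were merged into 32 sites, and a site at a window edge kept its peaks beyond that edge. At 23 of them both replicates of a PLT in a tissue had a peak, and these 23 are described here, each named by its gene and the median distance of its summits from the gene start in bp, negative upstream. The other 9 sites had peaks in 1 to 3 libraries and no complete pair. The median number of sites with a complete pair was 3 per member window and 2 over all genes, and 6 members had 3 sites or more, which 25.8% of all genes had. The member windows had a median length of 6342 bp and those of all genes 5807 bp.

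**Figure D2:**
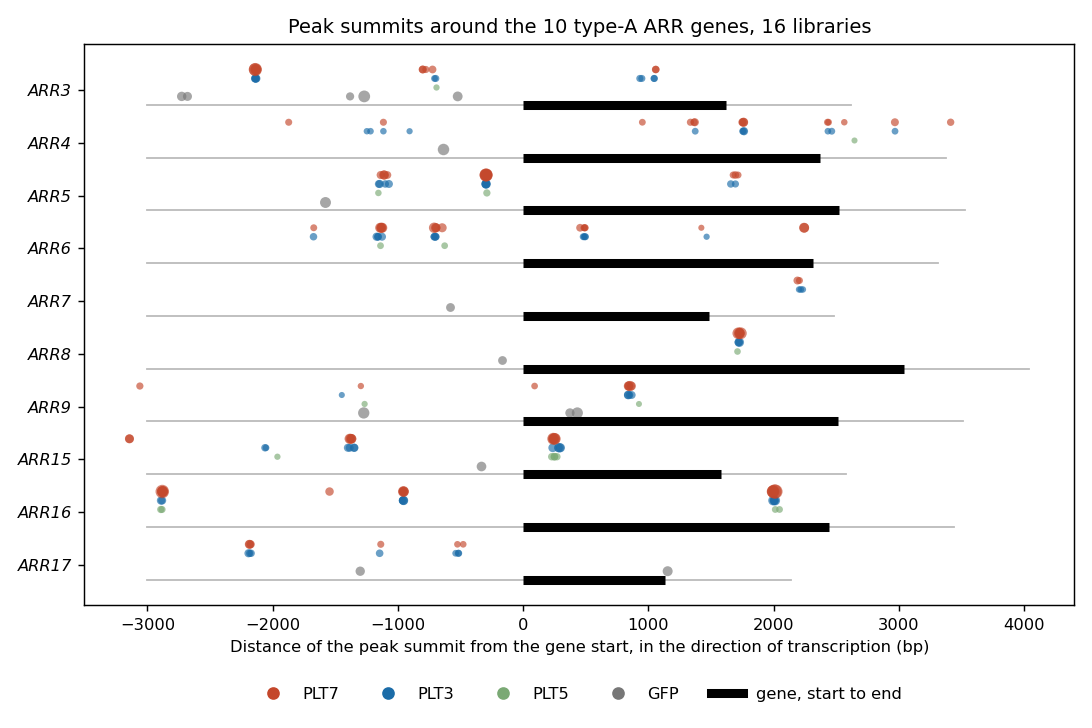
Summits of all peaks in the 16 libraries around each of the 10 genes (vertical axis), by distance from the gene start in bp in the direction of transcription (horizontal axis). Dots are coloured by protein and their area follows the fold enrichment, black bars are the genes and grey lines the windows; PLT7 and PLT3 summits stack at the same positions, while GFP summits mostly lie elsewhere.

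The summits of the 23 sites were intergenic at 7, in the member itself at 8 and inside a neighbouring gene at 8. Within the members they lay in the 3' UTR of 3 genes, in the 5' UTR of 2, in a coding exon of 2 and in an intron of 1. At 10 of the 23 the start of the member was the nearest annotated gene start. Of the 23, 2 overlapped a GFP peak, ARR3 -724 and ARR4 -1116, both with GFP IM replicate 1, whereas 15.0% of all 31895 sites with a complete pair overlapped one.

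A binding motif was derived to compare the sequences under the summits. A matrix of 16 bp was built from the 1000 PLT7 IM summits of highest fold enrichment outside the member windows, and its letters with a share of at least 0.5 read CCTNGNNANNCGTGNN, where N stands for any base. Both strands of the 50 bp on each side of a summit were searched. At a score that 5.0% of windows 500 bp away reached, 54.0% of the 22013 remaining PLT7 IM summits held a match. A match was found at 11 of the 23 member sites, or 47.8%. These shares are of unlike sets. The 54.0% leaves out the 1000 summits behind the matrix, of which 84.5% held a match, and the 23 include sites in no reproducible dataset. The 23 were also searched around the median summit of a merged site, and the others around the summit of a single peak. At ARR4 +2513 the merged summits ran from 2429 to 2968, so the search there could miss a match under a single peak. The best-scoring 16 bases are shown in capitals with 7 bases on each side, for the 8 sites with the highest motif scores and for ARR16 -956, the member site with the lowest:
ARR3 -2137: aaggtaaCCTCGAAACCCGGGAAcaccttt
ARR15 -1375: cacaacaCATCGAGAATCGTATTgaaagaa
ARR15 +249: ttcttcaCATTGATTTCTGCGTCctttgac
ARR16 +2007: tctcttaCCTCGGAAAATTCACCggaatct
ARR4 +1759: gaactatTCTGGGATGCCGTGTAatattat
ARR16 -2881: tcagtgcTCTTGGGAAACGGATTgacgcca
ARR5 -297: gtacattTCTTGAAAAATGGGAAaatcaag
ARR8 +1724: agtggctTCTCGGGTTGCGTTAGtcctcct
ARR16 -956: gtgtttgCATTATTATACGTAAAcattcaa
All are written 5' to 3' on the strand of the match. The score was 14.3 bits at ARR3 -2137, higher than at all but 2.43% of PLT7 IM summits outside the windows, and 12.61 at ARR15 -1375, 11.33 at ARR15 +249, 10.33 at ARR16 +2007, 10.27 at ARR4 +1759, 9.98 at ARR16 -2881, 9.95 at ARR5 -297 and 9.91 at ARR8 +1724, against a threshold of 8.38. ARR16 -956 scored 2.1, below the threshold, and no position within 50 bp of its summit reached it. A match is a description of the letters and does not show that the bait sits there.

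ARR3 (AT1G59940) and its paralogue ARR4 (AT1G10470), a pair with overlapping roles in the cytokinin response and in the circadian clock, differed in where and how strongly PLT7 peaks were called. ARR3 lies on chr1:22065617-22067233, minus strand, and its highest site, ARR3 -2137 at chr1:22069134-22069573, sat in an intron of the upstream neighbour AT1G59950. There PLT7 reached a fold enrichment of 6.57 and 4.09 in SAM replicates 1 and 2, and of 7.53 and 5.31 in IM replicates 1 and 2. PLT3 reached 3.06, 2.89, 3.09 and 2.97 in the same order, which is the order used from here on. All 4 PLT7 values were above all 4 PLT3 values, the PLT3 values lay close together, and within each tissue replicate 1 of PLT7 was the higher of the pair. No PLT5 list had a peak there. The summits of the 8 libraries fell between -2141 and -2131, and the centre of the motif match was 0 bp from their median. The 101 bp around this summit, chr1:22069320-22069420, read on the plus strand with the match in capitals:
ARR3 -2137: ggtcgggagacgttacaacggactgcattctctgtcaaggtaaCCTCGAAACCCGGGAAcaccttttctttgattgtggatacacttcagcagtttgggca

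The sites nearer to ARR3 were lower. ARR3 -724, intergenic, had 2.25, 2.81, 2.67 and 2.54 in the 4 PLT7 libraries, 2.04 and 2.24 in replicate 1 of PLT3 in the SAM and IM, and 1.73 in PLT5 IM replicate 1. It entered none of the reproducible datasets. ARR3 +1045, in a coding exon, had 2.23, 2.24, 2.15 and 2.21 in the PLT3 libraries, and PLT7 had peaks in the IM alone, of 2.44 and 2.48. ARR3 was also the member with the most GFP peaks, 5 of the 15, all in the IM lists and 1 of them over ARR3 -724.

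ARR4 lies on chr1:3441988-3444360, minus strand. Its highest site was ARR4 +1759 in the 3' UTR, with 2.95, 2.28, 3.35 and 3.66 for PLT7 and 2.13, 2.27 and 3.01 for PLT3 in SAM replicate 1 and both IM replicates. The PLT7 and PLT3 ranges overlapped. The merged site was 1133 bp wide and included a PLT3 IM replicate 1 peak of 1102 bp, and its summits ran from 951 to 1762. The 2.28 of PLT7 SAM replicate 2 belonged to a separate peak with its summit at 1335. That library had no peak over the summit at 1759. The 2 remaining sites, ARR4 -1116 and ARR4 +2513, held values of 1.71 to 2.78 with 1 PLT5 peak of 1.62. The window of ARR4 had 26 PLT peaks, more than that of ARR3 with 21, but its highest PLT7 value of 3.66 was exceeded in 79.5% of gene windows with a PLT7 peak, against 17.5% for the 7.53 of ARR3.

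ARR5 (AT3G48100), whose promoter is a widely used cytokinin reporter, had one of the strongest promoter-proximal sites of the class. The gene lies on chr3:17758427-17760950, minus strand, and ARR5 -297 spanned chr3:17761015-17761521 in the intergenic sequence before it. PLT7 reached 7.65, 5.91, 6.86 and 6.60, and PLT3 reached 3.62, 3.05, 3.89 and 2.83, so the groups did not overlap. A single PLT5 peak of 2.32 was called in SAM replicate 2. The summits of all 9 libraries with a peak lay between -298 and -290, and the match to the motif was centred 2 bp from their median. Between 5.24% and 11.2% of the peaks in each PLT7 list were higher. The 101 bp around the summit, chr3:17761197-17761297, read on the minus strand with the match in capitals:
ARR5 -297: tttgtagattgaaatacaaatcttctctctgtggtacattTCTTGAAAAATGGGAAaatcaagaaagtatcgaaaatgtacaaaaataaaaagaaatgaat

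A second site upstream of ARR5, ARR5 -1113, behaved differently from ARR5 -297. Its PLT7 values of 2.85, 3.63, 3.67 and 2.63 overlapped its PLT3 values of 2.47, 2.69, 2.95 and 2.83, PLT5 IM replicate 1 had 1.86, and the best motif score there was 5.25 bits, under the threshold. This summit lay -30 bp from the start of the annotated long non-coding RNA AT3G07865. ARR5 +1694, in a coding exon, was called in both replicates only by PLT7 in the IM, with 2.17 and 2.53, and entered none of the reproducible datasets.

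ARR6 (AT5G62920), the paralogue of ARR5, lies on chr5:25252007-25254318, minus strand. It had 2 upstream sites that all 8 PLT3 and PLT7 libraries shared, both inside the neighbour AT5G62930, which is transcribed away from it. ARR6 -1139 had 4.36, 4.20, 4.39 and 4.26 for PLT7 and 2.45, 2.69, 3.00 and 2.81 for PLT3, with 2.02 in PLT5 SAM replicate 2. ARR6 -698 had 3.61, 3.23, 4.78 and 3.92 for PLT7 and 2.91, 2.22, 2.59 and 2.68 for PLT3, with 1.98 in PLT5 IM replicate 1. At both sites the PLT7 values lay above all PLT3 values. In an intron of the gene itself, ARR6 +488 had 2.22, 2.20, 2.66 and 2.11 for PLT7 and 1.98, 2.13, 2.12 and 2.19 for PLT3, which overlapped. A match was present at all 3 sites with scores of 9.29, 8.98 and 8.42. The highest PLT7 value of the ARR6 window, 4.78, was exceeded in 58.0% of gene windows, against 16.3% for the 7.65 of ARR5.

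ARR7 (AT1G19050) and ARR15 (AT1G74890), a pair known for restraining cytokinin signalling in the shoot stem cell niche, differed most in the number of PLT libraries with a peak, which was 5 for ARR7, the lowest of the class, and 12 for ARR15, the highest. ARR7, on chr1:6577833-6579314, minus strand, had no PLT peak upstream of its start or in its body within the window. Its only site, ARR7 +2205, lay past its 3' end in a coding exon of AT1G19040, with 2.01 and 1.82 for PLT3 in the IM, 1.88 in PLT3 SAM replicate 2, 2.16 in PLT7 SAM replicate 2 and 2.77 in PLT7 IM replicate 2. The 5 peaks were low in their lists, with at least 73.2% of the peaks of the same library above each. A GFP peak of 3.43 in SAM replicate 1 was centred at -587. Of all genes, 42.7% had 1 site or none with a complete pair, as ARR7 did.

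ARR15, on chr1:28131447-28133025, minus strand, held the only member site called in all 12 PLT libraries, a pattern shared by 6.7% of sites with a complete pair. ARR15 +249, at chr1:28132521-28133082 in the 5' UTR, had 6.27, 4.49, 5.78 and 5.57 for PLT7, 3.99, 3.42, 3.46 and 3.43 for PLT3 and 2.37, 2.58, 2.45 and 2.38 for PLT5. The 3 proteins did not overlap, and the tissues did within each protein. From 14.7% to 21.4% of the peaks in the PLT5 lists were higher, against 12.5% to 25.6% in the PLT7 lists, but the PLT5 lists were much shorter, so these shares are not the same standing. ARR15 -1375, in a coding exon of OTP43, a gene for a mitochondrial splicing factor, had 4.39, 3.80, 4.42 and 3.96 for PLT7 and 2.81, 2.95, 2.82 and 3.06 for PLT3. ARR15 -3143 had its summit just outside the window, and only its PLT7 IM peaks reached in. Its PLT3 and PLT7 SAM peaks, merged into the same site, lay past the window edge. The site had 3.50, 3.39, 3.28 and 3.59 for PLT7 and 2.17, 2.61, 2.59 and 2.10 for PLT3. At neither was a PLT5 peak called.

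**Figure D3:**
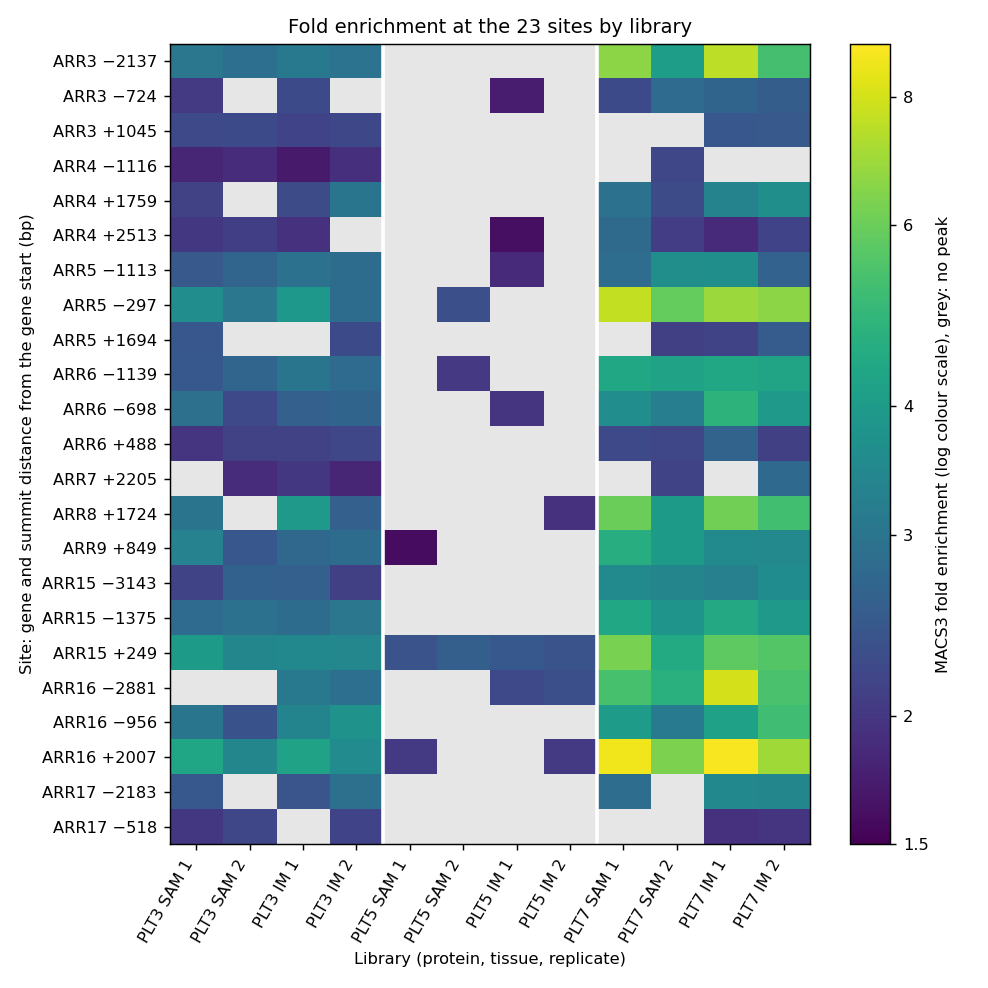
Fold enrichment (colour, log scale) at the 23 sites (rows, gene and summit distance from the gene start in bp) in the 12 PLT libraries (columns: protein, tissue, replicate). Grey marks no peak; ARR15 +249 is the one row without grey, and the brightest cells are PLT7 at ARR16 +2007, ARR16 -2881, ARR5 -297 and ARR3 -2137.

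ARR8 (AT2G41310) and ARR9 (AT3G57040) each had 1 described site, inside the gene. ARR8, on chr2:17221840-17224880, plus strand, had ARR8 +1724 in its 3' UTR, with 6.01, 3.98, 6.16 and 5.24 for PLT7, 2.98 for PLT3 in SAM replicate 1, 3.95 and 2.59 for PLT3 in the IM and 1.93 in PLT5 IM replicate 2. All PLT7 values exceeded all PLT3 values, though the lowest PLT7 and the highest PLT3 value differed by little. ARR9, on chr3:21109059-21111567, plus strand, had ARR9 +849 in its 5' UTR, with 4.58, 3.98, 3.51 and 3.49 for PLT7, 3.33, 2.44, 2.73 and 2.83 for PLT3 and 1.59 in PLT5 SAM replicate 1. The site was called in all 8 PLT3 and PLT7 libraries, while its best motif score of 3.56 was exceeded at 94.6% of PLT7 IM summits. Of the 15 GFP peaks 3 lay in the ARR9 window, at -1273, 373 and 432, none over ARR9 +849.

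ARR16 (AT2G40670) and ARR17 (AT3G56380), a pair of short regulators that has been linked to the stomatal lineage, again differed. ARR16, on chr2:16969673-16972113, plus strand, carried the highest values of the class at ARR16 +2007, chr2:16971432-16971983, in its 3' UTR. PLT7 reached 8.65, 6.32, 8.87 and 6.98 there, PLT3 4.29, 3.41, 4.22 and 3.55, and PLT5 2.04 in SAM replicate 1 and 2.03 in IM replicate 2. In every pair of PLT3 and PLT7 replicate 1 was the higher one, and PLT7 and PLT3 did not overlap. Between 2.48% and 5.93% of the PLT7 peaks were higher, and 7.17% of gene windows held a higher PLT7 value.

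Upstream, ARR16 -2881 and ARR16 -956 both lay in the neighbour AT2G40660, in a coding exon and an intron. ARR16 -2881 had 5.36, 4.68, 8.00 and 5.39 for PLT7, 3.09 and 2.88 for PLT3 in the IM and 2.23 and 2.33 for PLT5 in the IM. Neither PLT3 nor PLT5 had a peak there in the SAM. Of all sites with both PLT3 IM peaks, 6.01% had no PLT3 SAM peak, and 29.2% of those with both PLT5 IM peaks had no PLT5 SAM peak. A missing peak means that no call was made and gives no value, so this difference was not tested. ARR16 -956 had 4.02, 3.16, 4.18 and 5.21 for PLT7 and 3.00, 2.36, 3.37 and 3.74 for PLT3. Those ranges overlapped, and SAM replicate 2 was the lowest library for both proteins.

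ARR17, on chr3:20905264-20906397, plus strand, had 2 weaker sites and no PLT5 peak. ARR17 -2183, close to the start of AT3G56370, had 3.46 and 3.41 for PLT7 in the IM and 2.85 in SAM replicate 1, with 2.45 for PLT3 in SAM replicate 1 and 2.41 and 2.91 in the IM. Replicate 2 of the SAM had no peak for either protein. ARR17 -518 had 1.93 and 1.96 for PLT7 in the IM and 2.01, 2.20 and 2.15 for PLT3 in the SAM replicates and in IM replicate 2. In the ARR17 window the highest PLT7 value, 3.46, was exceeded in 83.0% of gene windows.

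**Figure D4:**
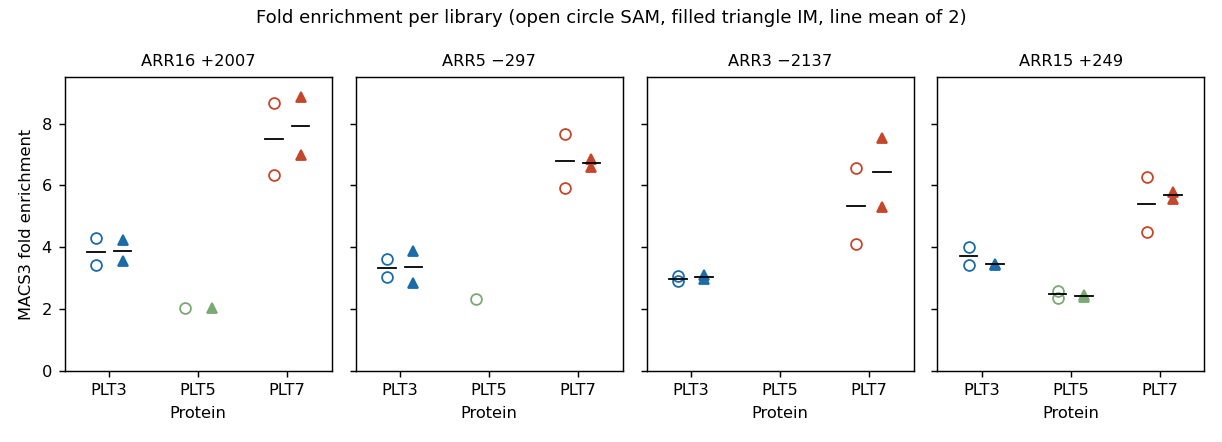
Fold enrichment (vertical axis, from 0) by protein at the 4 sites ARR16 +2007, ARR5 -297, ARR3 -2137 and ARR15 +249. They have the highest mean PLT7 fold enrichment among the 12 sites with peaks in all 8 PLT3 and PLT7 libraries. This choice favours high PLT7 values. Open circles are SAM libraries, filled triangles IM libraries and lines the mean of 2; PLT7 lies above PLT3 at each site and PLT5 has peaks in all its libraries only at ARR15 +249.

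The reproducible datasets gave a stricter count. A peak entered the dataset of a PLT and tissue when its 2 replicates met an irreproducible discovery rate (IDR) below 0.05 and it did not overlap a GFP peak of the same tissue, and a gene counted with a dataset peak within 1500 bp before or 500 bp after its start. PLT7 peaks were assigned to 4 members in the SAM and 5 in the IM, beside 37.2% and 41.8% of all genes. PLT3 peaks were assigned to 5 and 4 members, beside 28.8% and 31.3%. PLT5 peaks were assigned to 0 and 1 member, beside 0.784% and 3.29%.

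The members behind these counts were largely shared. ARR5, ARR6, ARR15 and ARR16 had a peak in both PLT3 and both PLT7 datasets. ARR4 was added for PLT3 in the SAM and ARR17 for PLT7 in the IM, and the PLT5 IM gene was ARR15. ARR4 counted through ARR4 -1116, with 1.82 and 1.88, and ARR17 through ARR17 -518, with 1.93 and 1.96. At least 91.6% of the peaks of the same list were higher than each of these. With peaks over GFP peaks of either tissue removed, the PLT3 SAM count was 4. ARR3, ARR7, ARR8 and ARR9 had none in any dataset, although ARR3, ARR8 and ARR9 had reproducible peaks farther away or inside the gene. Over the whole window the counts were 7 and 9 members for PLT3, 8 and 9 for PLT7 and 0 and 2 for PLT5, where ARR16 joined ARR15, beside 58.0% and 62.9%, 69.5% and 75.7%, and 1.98% and 8.25% of all genes. ARR7 had no dataset peak in either window.

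The other genes of the cytokinin response were counted in the same datasets, over 28 genes listed by class. PLT7 peaks were assigned to 9 of 28 in the SAM and 7 in the IM, beside 37.2% and 41.8% of all genes. PLT3 peaks were assigned to 6 and 3, beside 28.8% and 31.3%, and PLT5 peaks to none, beside 0.784% and 3.29%. Each of these counts was below the share of all genes. Among the receptors, AHK4 had a PLT3 and a PLT7 peak in the SAM, AHK2 and AHK3 had none. Of the 6 AHP genes, AHP2 was assigned in all PLT3 and PLT7 datasets and AHP3 for PLT7 in the SAM. AHP6, a pseudo-phosphotransfer protein that inhibits the pathway, was assigned in the SAM datasets of both proteins. The authors reported AHP6 peaks in both meristem types, and why the IM datasets refitted here lack one was not tested. Of the 11 type-B regulators, ARR12 and ARR13 had a PLT3 peak in the SAM and a PLT7 peak in both tissues. ARR18 had a PLT3 peak in the IM and a PLT7 peak in the SAM, and ARR1 a PLT7 peak in the IM. The type-C genes ARR22 and ARR24 had none, and of the 6 CRF genes, which encode cytokinin response factors of the AP2 family, CRF2 was assigned in all PLT3 and PLT7 datasets, CRF3 for PLT7 in both tissues and CRF5 for PLT7 in the IM.

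Of the 23 sites, 17 were called in all 4 PLT7 libraries, and 12 of these in all 4 PLT3 libraries too; among all sites the corresponding share was 71.2% of 21220. No member site had all 4 PLT7 peaks and no PLT3 peak, a pattern of 1.56% of all sites. A PLT5 peak was present at 11 of the 23, beside 41.7% of all sites with a complete pair.

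The 12 shared sites were compared between proteins on the log2 scale of fold enrichment with limma, fitted over all 15099 sites with a peak in all 8 PLT3 and PLT7 libraries. PLT7 was higher than PLT3 at 10 of the 12 at an adjusted p under 0.05 and lower at none. Over all fitted sites, 89.2% were called higher and 0.0662% lower, and the median difference was 0.61, so a higher value for PLT7 was the rule in the genome and not a property of these genes. The median of the 12 member differences was 0.56. Because nearly all of the spread was shared across sites in this fit, the SE was 0.13 at each.

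The member sites spread to both sides of the median. The difference was 1.02 at ARR5 -297 (adjusted p = 1.1e-14), 0.99 at ARR16 +2007 (adjusted p = 6.3e-14) and 0.93 at ARR3 -2137 (adjusted p = 1.2e-12), and 7.37%, 9.33% and 13.6% of all fitted sites had a larger one. It was 0.66 at ARR6 -1139, 0.62 at ARR15 +249, 0.57 at ARR6 -698, 0.55 at ARR15 -3143, 0.51 at ARR15 -1375, 0.46 at ARR9 +849 and 0.41 at ARR16 -956, with adjusted p-values from 3.9e-07 to 0.0016. At ARR5 -1113 the difference was 0.21 (95% CI -0.03 to 0.46, adjusted p = 0.099), and at ARR6 +488 it was 0.12 (95% CI -0.12 to 0.37, adjusted p = 0.35). Leaving out 1 library gave differences of 0.09 to 0.33 at ARR5 -1113, and whether it passed the threshold depended on the library left out.

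When each library was centred on its median over the fitted sites, the call was lost at 7 of the 12 and 5 were called. ARR3 -2137, ARR5 -297 and ARR16 +2007 stayed higher in PLT7, whereas ARR5 -1113 at -0.41 (adjusted p = 0.0043) and ARR6 +488 at -0.50 (adjusted p = 0.00029) were lower in PLT7 relative to the typical site. Over all sites the centred fit called 2732 higher and 3069 lower. So the 3 sites of highest PLT7 fold enrichment among the 12 also had the 3 largest differences, and of the 2 upstream sites of ARR5 one lay above and one below the typical difference. Both measures use the same PLT7 values.

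**Figure D5:**
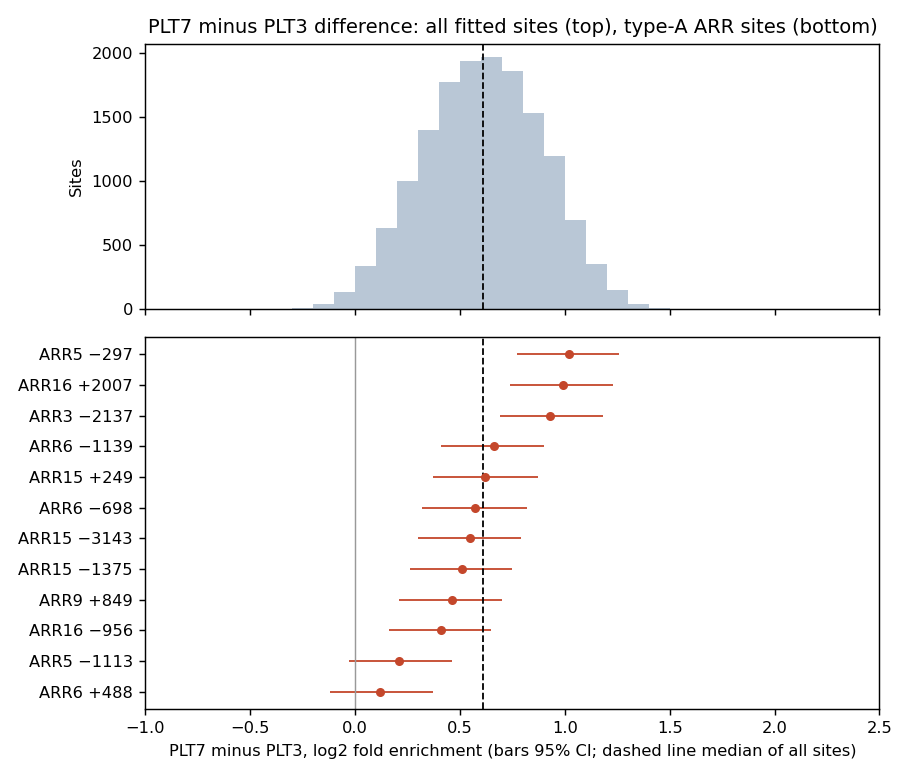
PLT7 minus PLT3 difference in log2 fold enrichment (horizontal axis). The top panel counts the 15099 fitted sites in bins of 0.1, and the bottom panel gives the 12 type-A sites with 95% confidence intervals; the dashed line is the median of all sites, 0.61, and the intervals of ARR5 -297, ARR16 +2007 and ARR3 -2137 lie above it while those of ARR5 -1113 and ARR6 +488 lie below.

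ARR15 +249 was the only member site in the fit of PLT7 against PLT5, over 2233 sites with a peak in all 8 libraries of these proteins. It was higher in PLT7 by 1.17 (SE 0.13, adjusted p = 2.8e-15), and 98.0% of sites were called higher and 0.582% lower. The median difference of all fitted sites was 1.48, and 78.5% of sites had a larger difference than ARR15 +249. With libraries centred the sign turned, to -0.33 (adjusted p = 0.0023).

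Between the tissues no member site passed the adjusted threshold in the limma fit, and 1 site lay near it. The IM minus SAM difference of the 12 sites ranged from -0.16 to 0.40 with a median of 0.06, beside 0.10 over all sites, and 1.42% of sites were called higher and 0.0861% lower in the IM. At an unadjusted p under 0.05 the count was 1 of 12. This was ARR16 -956, with 0.40 (95% CI 0.16 to 0.65, adjusted p = 0.062), where the IM mean was above the SAM mean for both proteins. With the replicate number added to the fit, the site passed the threshold (limma, adjusted p = 0.0075). With each library centred on its median the difference was 0.30 and did not pass (limma, adjusted p = 0.15). Leaving out 1 library gave differences of 0.31 to 0.49 at ARR16 -956, and whether it passed depended on the library left out. The calls over all sites between tissues moved from 228 to between 10 and 1475 when 1 library was left out.

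The PLT7 minus PLT3 difference did not depend detectably on the tissue at any of the 12 sites. The interaction term ranged from -0.25 to 0.29, with bounds of the 95% intervals from -0.74 to 0.78, and limma called 0% of all sites in either direction, with 344 of 15099 at an unadjusted p under 0.05 and 0 of the 12 member sites. The SE of the term was 0.25 at each of the 12 sites.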

How the data were processed

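DAP-seq peak lists of 16 libraries, 12 with a PLT bait and 4 with GFP, were used. Per the labels and methods, the authors trimmed reads with fastp 0.23.2, aligned them to TAIR10 with BWA 0.7.17, sorted with SAMtools 1.15 and called peaks per library with MACS3 and no control library. Each deposited peak has a fold enrichment (a ratio), a p-value and a q-value given as −log10, a score and a summit offset. The highest q-value was 0.1. Read depths are not in the files, so no counting error is given. The score was not analysed.

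The sequence names matched TAIR10.1, whose RefSeq annotation gave genes and features. Nuclear peaks only entered sites and counts. The IDR model was refitted here on fold enrichment. Overlapping PLT peaks were merged into sites, each with the highest fold enrichment per library. limma 3.58.1 (R 4.3.3) was fitted with 4 group means and Benjamini-Hochberg adjustment over all fitted sites; requiring a peak in all 8 libraries leaves out sites too weak for a call. Motif and counts used Python 3.11.15. All 10 members were named, and a site was described when both replicates of a PLT in a tissue had a peak. All fits were tested on simulated data. The members and lists were chosen with earlier results of these data known. Alternatives covered the ranking, IDR, q-value, GFP rule, gene window, site definition, centring, replicate block, motif source and leaving out each library. Per the methods the replicates are biological, each with its own pool of meristems.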

Additional observations from a re-analysis of the deposited data

How the results depend on the processing

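Of the differences recomputed at single member sites, 167 kept their direction and their side of the threshold. Another 8 turned sign, all with libraries centred, and were counted as turned whether or not their call also changed. Of the rest, 2 lost and 5 gained a call. With the gene window set from 3000 bp upstream to 1000 bp past the gene end, the members with a dataset peak were 9 for PLT3 IM, 8 for PLT7 SAM, 9 for PLT7 IM and 2 for PLT5 IM. Without IDR, PLT5 SAM had 1. The peaks of 1 replicate alone gave 6 to 7 members for PLT3 SAM, 4 to 5 for PLT3 IM, 1 to 3 for PLT5 SAM, 1 to 3 for PLT5 IM, 5 to 6 for PLT7 SAM and 5 in both cases for PLT7 IM. With libraries centred, the calls over all sites were 5801 for PLT7 against PLT3, 1136 for PLT7 against PLT5 and 113 for IM against SAM, and 5 of 12 member sites were called between PLT7 and PLT3. The centred difference was -0.41 at ARR5 -1113, -0.05 at ARR6 -698, -0.50 at ARR6 +488, -0.17 at ARR9 +849, -0.08 at ARR15 -3143, -0.12 at ARR15 -1375 and -0.22 at ARR16 -956, and for PLT7 against PLT5 -0.33 at ARR15 +249; centring removes the shift of the typical site by construction. Leaving out 1 library gave 12772 to 13478 calls for PLT7 against PLT3, 2192 to 2206 for PLT7 against PLT5, 10 to 1475 for IM against SAM and 0 to 4 for the interaction, with 10 to 11 member sites called between proteins and 0 to 1 between tissues. The lowest count between tissues, 10, came without PLT3 SAM replicate 2 and without PLT7 IM replicate 1, and the highest, 1475, without PLT7 SAM replicate 1; the cause was not tested.

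The replicate numbers are shared by all groups, and deviations from the group means of same-numbered PLT3 and PLT7 libraries correlated by 0.04 to 0.16. The labels do not say whether same-numbered libraries of a tissue shared a pool of DNA, and these low correlations cannot settle it. With the replicate block, 1361 sites were called between tissues and 2 for the interaction, and 1 member site was called between tissues, ARR16 -956 at 0.40 (limma, adjusted p = 0.0075). The replicate block changed no other call at a member site. With the matrix built from PLT3 IM summits, 10 of 23 sites held a match, 9 of them also by the PLT7 matrix: ARR6 -1139 and ARR6 +488 fell under the threshold and ARR3 +1045 passed it. The absence of a peak gives no value, and read depth is not in the peak lists; its part in the PLT5 counts was not tested.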
